A study of Mus musculus with 4 samples.

Results

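Basophil lineage cells were examined in single-cell RNA sequencing data of mouse bone marrow. A cell was counted as basophil lineage when at least 0.5% of its UMIs (unique molecular identifiers, each marking 1 captured RNA molecule) came from *Mcpt8* and *Prss34* together and under 5% from *S100a8* and *S100a9*. This gave 193 of 8969 cells. The data came from 4 libraries, 1 for each of 2 genotypes and 2 sorts. *Tet2* KO mice carried Mx1-Cre and *Tet2* fl/fl alleles, and controls were *Tet2* fl/fl littermates without Cre. Mice of both genotypes were young adults, male or female, and all were given pI:pC, which induces interferon, in 4 doses that were each 12.5 ug/g, so the controls had received it too. Mx1-Cre is switched on by interferon and also acts outside blood cells. The GMP sort took Lin- cKit+ Sca1- CD34+ CD16/32+ granulocytic-monocytic progenitors, and the second sort combined Lin- progenitors with CD11b+ myeloid cells (Lin-/CD11b+). With 1 library per group there was no replicate and no test. Genotype therefore cannot be told apart from the mouse or the preparation. Intervals are at 95% and cover counting error only.

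Basophils are the rarest granulocytes of blood and bone marrow. They arise from progenitors that also give rise to mast cells and neutrophils, under GATA2 and C/EBPα, and mature under interleukin 3. They carry the high-affinity IgE receptor, whose α chain (*Fcer1a*) binds IgE and whose β (*Ms4a2*) and γ (*Fcer1g*) chains pass on the signal, and on activation they release histamine, leukotrienes, interleukin 4 and chemokines. *Mcpt8* and *Prss34* encode serine proteases that in mice are typical of basophils, and *Cpa3* encodes a granule carboxypeptidase shared with mast cells. TET2 oxidises methylated cytosine, and its loss is a frequent early lesion in myeloid disease.

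Promoters of the markers were read because 4 of the 6 hold the same letters close to the start and because *Gata2*, which encodes a factor that binds GATA sequences, is itself a marker. The 250 bases before the start of transcription are given 5′ to 3′ on the gene's strand from RefSeq (GRCm38.p6), with AGATAA, or TTATCT for its reverse complement, in capitals.
Prss34, chr17:25298144-25298393, plus strand: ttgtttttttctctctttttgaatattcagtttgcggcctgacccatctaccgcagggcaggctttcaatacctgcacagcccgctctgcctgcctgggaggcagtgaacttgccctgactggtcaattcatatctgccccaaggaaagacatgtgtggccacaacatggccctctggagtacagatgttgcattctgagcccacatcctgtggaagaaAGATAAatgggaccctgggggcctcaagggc
Fcer1a, chr1:173227230-173227479, minus strand: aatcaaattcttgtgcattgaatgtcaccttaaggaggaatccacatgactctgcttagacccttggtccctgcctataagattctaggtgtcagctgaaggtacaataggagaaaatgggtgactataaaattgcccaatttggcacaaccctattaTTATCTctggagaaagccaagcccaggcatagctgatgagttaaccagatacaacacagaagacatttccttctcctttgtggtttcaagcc
Ms4a2, chr19:11623720-11623969, minus strand: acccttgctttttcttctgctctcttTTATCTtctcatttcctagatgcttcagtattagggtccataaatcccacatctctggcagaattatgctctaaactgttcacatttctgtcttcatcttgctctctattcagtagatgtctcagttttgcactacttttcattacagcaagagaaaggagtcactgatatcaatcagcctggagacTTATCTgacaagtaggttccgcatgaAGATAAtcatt
Cpa3, chr3:20242182-20242431, minus strand: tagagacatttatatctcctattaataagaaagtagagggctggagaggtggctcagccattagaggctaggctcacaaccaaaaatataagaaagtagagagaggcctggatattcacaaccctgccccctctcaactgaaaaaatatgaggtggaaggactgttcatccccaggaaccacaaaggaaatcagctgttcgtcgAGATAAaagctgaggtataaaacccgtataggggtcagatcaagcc
*Prss34* held AGATAA at 31 bases before the start. In *Cpa3* it lay at 46 bases before the start. *Fcer1a* held TTATCT at 92 bases before the start, and *Ms4a2* held 3 matches, at 224, 37 and 11 bases before it. The letters AGATAA were searched on both strands. So were the letters TGATAA. The forms AGATAG and also TGATAG were searched as well. None of the 4 was found in the window of *Mcpt8* or in the windows of the 2 starts of *Gata2*. The *Mcpt8* window, chr14:56085198-56085447, lay inside the annotated gene span, chr14:56082163-56085499. It was therefore read before a start inside that span and not before the outer end of the gene. The annotated span of *Ms4a2* reached to position 11623790, so its matches at 37 and 11 bases lay inside the span. Of all 32851 windows of this length, 9.99% held AGATAA on either strand and 26.5% held any of the 4 sequences. These matches are a description of the letters and not of bound sites.

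The members were 42 of 1258 cells in the control GMP library (3.34%, 2.42 to 4.49, exact binomial interval) and 51 of 2719 in the *Tet2* KO GMP library (1.88%, 1.40 to 2.46). In the Lin-/CD11b+ sort they were 42 of 1924 control cells (2.18%, 1.58 to 2.94) and 58 of 3068 *Tet2* KO cells (1.89%, 1.44 to 2.44). The control GMP share was the highest, and all 4 intervals overlapped, those of control and *Tet2* KO GMP only from 2.42 to 2.46%. Overlap of intervals is not a comparison of the shares, which was not made. A supplementary table of the study lists the cell numbers of the *Tet2* KO GMP and control Lin-/CD11b+ libraries the other way round. The deposited assignment was used, and every comparison below rests on it. *Igkc*, an immunoglobulin gene, was at 0.238 CPM (the UMIs of a gene, scaled to the same UMI total in each library) in the other cells of the library labelled *Tet2* KO GMP and at 51959 CPM in those of the library labelled control Lin-/CD11b+, beside 7.28 CPM in control GMP and 29552 CPM in *Tet2* KO Lin-/CD11b+. The sort gates set part of these shares, and fewer cells of a type and less RNA per cell cannot be told apart through a rule on a share of UMIs. Summed over members the libraries held between 377938 and 604228 UMIs. Members had a median of 10631.5 and 11402 UMIs per cell in control and *Tet2* KO GMP and of 7683 and 8037 in Lin-/CD11b+, each below the median of the other cells of the same library (10485 to 18877). There were 37 cell barcodes in more than 1 library, and 2 members carried such a barcode. *Xist* lay between 1551 and 1828 CPM in the members of the 4 libraries, and the Y-linked *Kdm5d* had 1 UMI in all of them, so no library stood apart in these sex-linked genes.

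**Figure D1:**
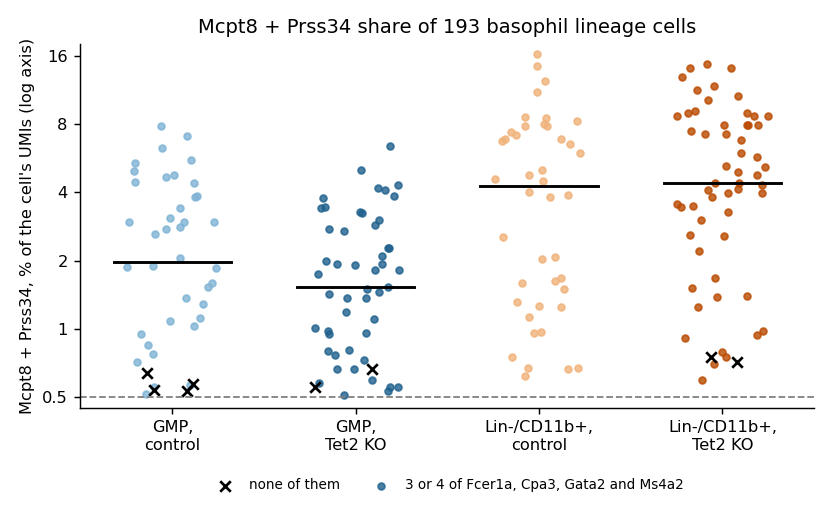
Each point is 1 of the 193 basophil lineage cells, placed by its percent of UMIs from Mcpt8 and Prss34 on a log axis in its library; lines are medians, the dashed line is the 0.5% minimum and crosses are the 8 cells with no UMI of Fcer1a, Cpa3, Gata2 or Ms4a2. The medians are 1.97 and 1.54% in the GMP sort and 4.25 and 4.41% in the Lin-/CD11b+ sort, and the crosses all lie at or below 0.757%.

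The rule divided a continuous range. 8274 cells had a share under 0.05%, 17 cells lay at 0.4 to 0.5% and 14 at 0.5 to 0.6%. *Fcer1a* was at 897 CPM in the 17 cells just outside and 602 CPM in the 14 cells just inside, against 6.08 CPM in cells under 0.05%. Over the members, the share reached 7.83 and 6.43% in control and *Tet2* KO GMP and 16.2 and 14.7% in Lin-/CD11b+. The *S100a8* and *S100a9* limit kept out 2 *Tet2* KO Lin-/CD11b+ cells, with 32.4 and 17.2% of UMIs from these neutrophil genes, while no member exceeded 0.621%.

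The label was checked on the 4 markers that the rule did not read. Of the 193 members, 159 had UMIs of *Fcer1a*, *Cpa3*, *Gata2* and *Ms4a2* together, 26 had 3 of the 4 and 8 had none. *Fcer1a* was at 1710 CPM in control GMP, 1264 in *Tet2* KO GMP, 2453 in control Lin-/CD11b+ and 1674 in *Tet2* KO Lin-/CD11b+. The other cells of the same libraries had 33.2, 11.1, 9.24 and 7.20 CPM. *Ms4a2* lay between 466.7 and 569.5 CPM, against 3.79 to 18.8 in the other cells. *Cpa3* was at 2092, 1925, 2813 and 2766 CPM in the same order, against 25.2 to 82.3. *Gata2*, the factor of the basophil and mast cell branch, was at 252.4, 145.6, 328.1 and 255.0 CPM, against 6.48 to 13.9. All 4 genes were higher in the members of every library than in cells with a *Hlf* or *Procr* UMI, with a *Cebpe* and no *Ly86* UMI, or with a *Ly86* and no *Cebpe* UMI. Of 5 mast cell markers only *Cma1* was measured, at 5.29 CPM in the control Lin-/CD11b+ members and at 0 UMIs in the others. The eosinophil genes *Ear1* and *Ear6*, the dendritic cell gene *Siglech* and the erythroid gene *Car1* were at 0 UMIs in all members. The 5 dendritic cell markers summed to 2.02, 11.6, 556 and 107 CPM in control GMP, *Tet2* KO GMP, control Lin-/CD11b+ and *Tet2* KO Lin-/CD11b+, and the 5 lymphoid and plasma cell markers to 0, 0, 2416 and 43.1. In the other cells the dendritic cell markers summed to between 66.6 and 1469 CPM. The 6 eosinophil markers summed to 24.2, 16.6, 108.5 and 15.0 CPM in the members, against 88.1, 69.7, 50.4 and 108.2 in the other cells, and 1 control Lin-/CD11b+ member held 10 or more of their UMIs. The 5 megakaryocyte and erythroid markers were higher in the members, at 96.9, 140.7, 127.0 and 148.1 CPM against 11.4, 8.10, 8.74 and 15.9. The 5 monocyte markers summed to between 26.5 and 107 CPM, against 379 to 731.4, and the 5 neutrophil markers, which include *Elane* and *Mpo*, to between 1934 and 5662, against 8236 to 12761.

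**Figure D2:**
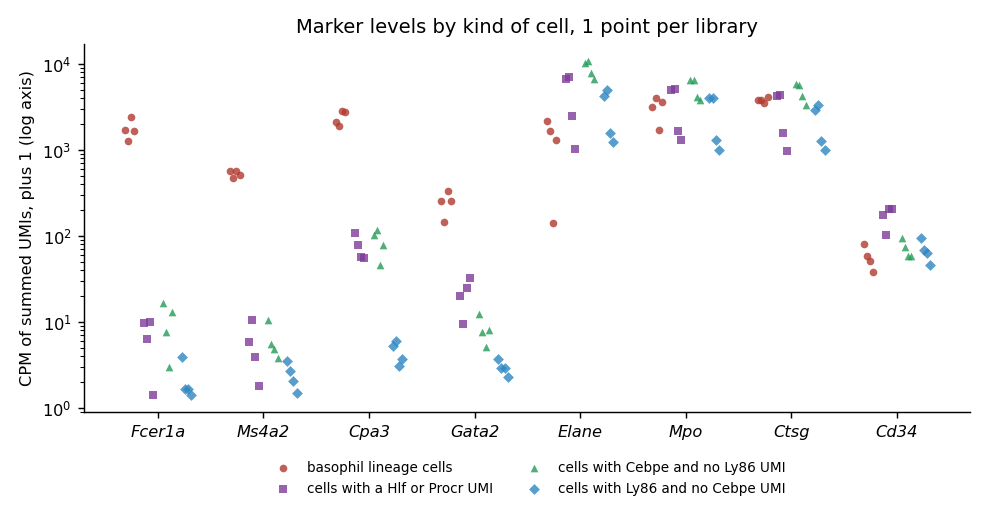
Each point is the level of a gene in 1 library, as CPM of summed UMIs plus 1 on a log axis, in basophil lineage cells and in 3 kinds of other cells set by Hlf or Procr, Cebpe and Ly86 UMIs. Fcer1a, Ms4a2, Cpa3 and Gata2 separate the members from the other cells, while Mpo and Ctsg do not.

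Other genes that stood above the other cells in all 4 libraries were described without a test, since the members were chosen on genes of the same cells. Of 2302 genes with enough UMIs, 86 (3.74%) were at least 2-fold higher in all 4 libraries and 48 (2.09%) at least 2-fold lower. *Cyp11a1*, the side-chain cleavage enzyme of steroid synthesis, was between 115.8 and 195.8 CPM and at most 1.74 in the other cells. *Cd200r3*, an activating receptor of basophils and mast cells, was between 24.8 and 166.7 CPM, against at most 0.759. *Csrp3*, a LIM protein best known from muscle, was between 616.9 and 926.1 CPM, against 7.64 to 30.8. Genes of mediator synthesis and storage were among them, with *Alox5* (5-lipoxygenase, the first enzyme of leukotriene synthesis) at 108.5 to 135.7 CPM and *Slc18a2* (the vesicular monoamine transporter) at 45.0 to 74.1 CPM. The adaptor *Lat* lay between 54.4 and 84.7 CPM, the transcription regulator *Lmo4* between 699.4 and 968.4 and *Ets1* between 59.6 and 123.8. *Itga2b*, the platelet integrin αIIb, was between 84.8 and 142.5 CPM, against 3.72 to 7.01, and made up most of the summed level of the megakaryocyte and erythroid markers. *Fgf3*, *Gm11697*, *Rom1*, *Edem3* and *4930519L02Rik* completed the 20 genes that led this order. Among genes lower than in the other cells were the monocyte genes *Ly6c2*, *Ly86*, *F13a1* and *Irf8* and also *Lyz2*, *S100a4*, *S100a6*, *Ass1*, *Fkbp1a* and *Ighm*. *Irf8*, the factor of monocyte and dendritic cell fate, was at 11.6 to 52.5 CPM, against 240.4 to 480.6 in the other cells.

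Genes of mediators and of their receptors were then read in the members. *Hdc*, which makes histamine, was at 294.8, 203.6, 354.6 and 307.5 CPM in control GMP, *Tet2* KO GMP, control Lin-/CD11b+ and *Tet2* KO Lin-/CD11b+, against 23.9 to 58.9 in the other cells. *Srgn*, the core protein of granule proteoglycans, lay between 2344 and 2752 CPM, against 655.7 to 1402. *Il4* was sparse, with 13, 13, 21 and 10 UMIs in the 4 libraries (18.8 to 55.6 CPM), and the other cells had at most 1.03 CPM. *Il6* had 23, 17, 18 and 33 UMIs (28.1 to 61.9 CPM), against at most 1.34 CPM. Both cytokine genes were sparse in the members and lower still in the rest. *Il3ra*, the interleukin 3 receptor α chain, was at 143.4, 84.4, 153.5 and 125.6 CPM, and *Il1rl1*, the interleukin 33 receptor, at 20.2, 23.2, 58.2 and 37.5.

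A group of 8 members lacked the other markers. They lay at shares of 0.533 to 0.757% (4, 2, 0 and 2 cells in control GMP, *Tet2* KO GMP, control Lin-/CD11b+ and *Tet2* KO Lin-/CD11b+), had no UMI of *Fcer1a*, *Cpa3*, *Gata2*, *Ms4a2* or *Prss34*, and entered through *Mcpt8* alone, with 76 to 160 UMIs each. Each held 73 to 367 UMIs of *Elane*, neutrophil elastase, which came to 9013 CPM against 730.3 in the other 185 members. *Prtn3* was at 6294 CPM against 760.6 and *Ly6c2* at 1775 against 193.1. *Cebpe*, the factor of neutrophil maturation, had a UMI in 5 of the 8 cells and in 5 of the other 185. These 8 cells held 72.8% of the members' *Elane* UMIs in control GMP, 23.0% in *Tet2* KO GMP and 66.0% in *Tet2* KO Lin-/CD11b+. *Elane* was at 2151, 1658, 140.2 and 1298 CPM over all members and at 715, 1369, 140 and 469 CPM without them.

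A further pair of cells of the control Lin-/CD11b+ library held 7215 and 3176 UMIs of the immunoglobulin gene *Igkc*, 21.0 and 21.1% of their totals, with 520 and 309 UMIs of *Jchain*, both plasma cell genes. Markers of dendritic, lymphoid and plasma, or monocyte cells summed to 10 or more UMIs in 3, 0, 5 and 2 members of the 4 libraries. A UMI of *Igkc* was found in 81.0 and 84.5% of the control and *Tet2* KO Lin-/CD11b+ members after thinning each cell to 5000 UMIs, and in 83.6 and 79.6% of the cells with *Cebpe* and no *Ly86* there, so this share was at the background of those libraries. The results below are given with all 193 members, and genes no longer counted without the cells that lacked *Fcer1a*, *Ms4a2* and *Cpa3* or held another class's markers are named.

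Within the members, the levels of genes outside the rule were followed over the share of *Mcpt8* and *Prss34*, as a description. *Fcer1a* was at 664.5, 1859, 1948 and 2917 CPM in control GMP at shares of 0.5 to 1, 1 to 2, 2 to 4 and over 4%. In *Tet2* KO GMP it was at 888.6, 1225 and 1762 CPM over the first 3 of these bins, and the last held 5 cells. *Cpa3* went from 632.8 to 3322 CPM and from 1195 to 2965 CPM over the same bins. Without the 8 cells described above, the lowest bin was at 1533 CPM of *Fcer1a* and 1460 of *Cpa3* in control GMP and at 1087 and 1462 in *Tet2* KO GMP, still the lowest of the bins named. *Elane* took the other direction, from 5202 through 1570 and 339.9 to 172.2 CPM in control GMP and from 3546 through 742.8 to 450.3 CPM in *Tet2* KO GMP. Without the same 8 cells, the lowest bin of control GMP held 7 cells with 686 CPM, below the 1570 CPM of the next bin, so the order at that end rested on those cells. In *Tet2* KO GMP the lowest bin kept 3067 CPM over 15 cells. Of its 556 *Elane* UMIs, 1 cell with 22351 UMIs in total held 261. The next highest level of these 15 lay in a cell with 24335 UMIs, so this value rested largely on few cells. *Mpo*, myeloperoxidase, was lower in each further bin of control GMP, with 4107, 2971, 2587 and 2421 CPM, but its lowest bin was at 1490 CPM without the 8 cells. The values 4439, 2905 and 4393 CPM of *Tet2* KO GMP had no such order. *Ctsg*, cathepsin G, was at 2708 CPM in the lowest and 4507 CPM in the highest bin of control GMP. Across the cells of a library, which share their library and total UMIs, Spearman's rho of the share with *Fcer1a* was 0.62 (n = 42), 0.44 (n = 51), 0.74 (n = 42) and 0.59 (n = 58), and with *Elane* -0.62, -0.41, -0.09 and -0.41. These values include the same 8 cells, which lie at low shares, and were not computed without them.

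**Figure D3:**
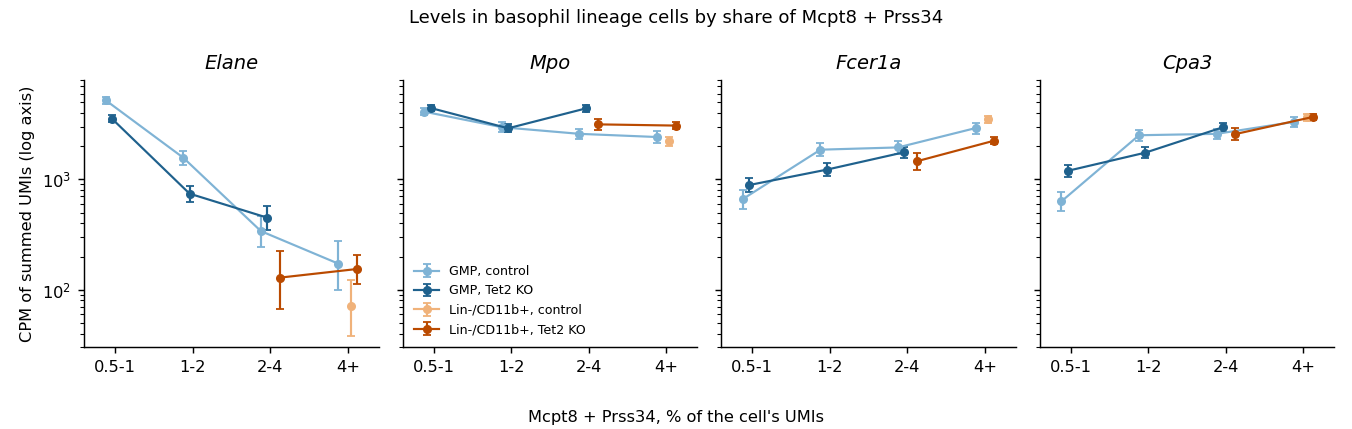
Each panel gives the CPM of summed UMIs of 1 gene on a log axis, with exact Poisson intervals, over bins of the Mcpt8 + Prss34 share; only bins with at least 10 cells of a library are drawn. Fcer1a and Cpa3 are higher in the bins of higher share of every library with more than 1 bin, Elane is lower in those of the GMP sort, and Mpo stays between 2208 and 4439 CPM.

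When the cells of each library were divided at a share of 2%, there were 21 and 21 cells under and from 2% in control GMP, 33 and 18 in *Tet2* KO GMP, 15 and 27 in control Lin-/CD11b+ and 14 and 44 in *Tet2* KO Lin-/CD11b+. Of 1744 genes, 2 (0.115%) were at least 2-fold higher from 2% in all 4 libraries, namely *Prss34* and *Mcpt8*, which set the division. The 2 genes (0.115%) at least 2-fold lower in all 4 were *Elane* and *Ly6c2*, a surface protein of monocytes and their precursors. *Ly6c2* was at 31.9 CPM from 2% and 627.2 under it in control GMP, 54.4 and 492.4 in *Tet2* KO GMP, 140.7 and 369.5 in control Lin-/CD11b+ and 18.5 and 1054 in *Tet2* KO Lin-/CD11b+. The 8 cells described above, none of them in control Lin-/CD11b+, held 288 *Ly6c2* UMIs, against 357 in the other 185 members. Without them *Ly6c2* was at 241.6, 378.8, 369.5 and 522.7 CPM under 2% in the 4 libraries and *Elane* at 1245, 1908, 258 and 1462, against 264.4, 405.6, 68.2 and 147.9 from 2%, so both stayed higher under 2% in each library. Of the 690 *Elane* UMIs left under 2% in *Tet2* KO GMP, 1 cell held 261. In *Tet2* KO Lin-/CD11b+ the highest level left lay in 1 cell with 25948 UMIs in total, so these summed values rested in part on single cells. This comparison was chosen after seeing the data.

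The GMP sort was then compared with the Lin-/CD11b+ sort within each genotype. A gene was counted when its CPM ratio was at least 2-fold the same way in both genotypes, with both exact conditional binomial intervals on that side. Of 3661 genes with at least 20 UMIs in each comparison, 4 (0.109%) were higher and 10 (0.273%) lower in the GMP sort, 0.382% in either direction. The 4 higher genes were *Tomm40* of the mitochondrial import pore, *Pmf1* of the kinetochore, *Poldip2* and *Abhd11*. *Poldip2* was at 54.5 and 71.2 CPM in control and *Tet2* KO GMP members and at 18.5 and 24.4 in Lin-/CD11b+ members (log2 ratios 1.56, 0.32 to 3.0, and 1.55, 0.62 to 2.57). *Tomm40* was at 72.7 and 79.4 against 23.8 and 37.5 CPM. The other cells of the libraries differed the same way in *Tomm40*, with 114.3 and 108.9 CPM in GMP against 64.5 and 68.2 in Lin-/CD11b+, and in *Poldip2*, with 57.0 and 49.9 against 33.2 and 32.0.

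The genes lower in the GMP sort were *Igkc*, *Igha*, *Cd74*, *S100a6*, *Slpi*, *Prss34*, *Lyz2*, *S100a9*, *Cmtm6* and *Stk17b*. *Prss34* and *S100a9* belong to the rule. *Prss34* was at 11079 and 7168 CPM in control and *Tet2* KO GMP members and at 24581 and 21539 in Lin-/CD11b+ members. *Slpi*, a secreted inhibitor of leukocyte proteases, was at 113.1 and 62.9 against 1220 and 286.9 CPM, and 3 cells held 90% of its UMIs in control Lin-/CD11b+. *Cd74*, the MHC class II invariant chain, had 0 and 2 UMIs in the GMP members against 178 and 47, of which 3 cells held 98 and 89%. *Lyz2*, lysozyme, was at 76.7 and 92.7 against 211.7 and 335.6 CPM, with 66 and 85% of the latter in 3 cells. Without those 3 cells of each library its *Tet2* KO log2 ratio turned from -1.86 to 0.26. All of *Igkc*, *Igha*, *Cd74*, *S100a6*, *Lyz2* and *S100a9* were far higher in the other cells of the Lin-/CD11b+ than of the GMP libraries, and the part of RNA from those cells in the members' values was not tested. *Cmtm6*, which stabilises surface PD-L1, had 3 and 4 UMIs in GMP members against 18 and 16, and the kinase gene *Stk17b* 9 and 3 against 21 and 18. Without cells that lacked *Fcer1a*, *Ms4a2* and *Cpa3* or held another class's markers, *Poldip2* alone of the 4 higher genes was still counted. Of the 10 lower genes 5 were, and *Stk17b*, *S100a6*, *Lyz2*, *Cmtm6* and *Cd74* were not.

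Markers that the rule did not read were somewhat lower in GMP members. *Fcer1a* differed by a log2 ratio of -0.52 (-0.66 to -0.38) in control and -0.41 (-0.55 to -0.26) in *Tet2* KO members. *Gata2* differed by -0.38 (-0.75 to -0.01) and -0.81 (-1.21 to -0.41), and *Cd200r3* by -0.91 (-1.50 to -0.33) and -2.50 (-3.41 to -1.69). *Ms4a2* had ratios of 0.01 (-0.25 to 0.27) and -0.13 (-0.38 to 0.11), so both intervals held 0. None of these reached 2-fold in both genotypes. The sums include the 8 cells described above that lacked *Fcer1a*, *Cpa3*, *Gata2* and *Ms4a2*. Control GMP held 4 of them and control Lin-/CD11b+ 0, so the control ratios include that difference. Ratios without these cells were not computed. Median CPM per cell of *Fcer1a* was 1981 and 1293 in control and *Tet2* KO GMP and 2444 and 1907 in Lin-/CD11b+. For *Gata2* it was 316.4 and 137.0 against 362.5 and 288.3. Shares of *Mcpt8* and *Prss34* were lower in GMP members, with medians of 1.97 and 1.54% against 4.25 and 4.41%. At shares of 2 to 4% in *Tet2* KO, *Fcer1a* was at 1762 CPM in GMP and 1458 in Lin-/CD11b+. *Gata2* was at 154.4 and 310.9 and *Cd200r3* at 32.2 in both. At 4% or more in control, these genes were at 2917 and 3508, 384.9 and 365.2, and 141.8 and 293.2 CPM. The part of the share in these sort differences was not tested. *Cd34*, whose protein is part of the GMP gate, was at 78.8 and 57.9 CPM in GMP members and at 50.3 and 37.5 in Lin-/CD11b+ members, and *Kit* at 12.1 and 26.5 against 15.9 and 33.8. The median log2 ratio of 8 primary granule genes was 0.49 in control and 0.08 in *Tet2* KO, beside 0.10 and 0.04 over all genes, with 0 of them counted in either direction.

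*Tet2* KO members were compared with control members within each sort. *Tet2* itself had 9, 13, 5 and 12 UMIs in control GMP, *Tet2* KO GMP, control Lin-/CD11b+ and *Tet2* KO Lin-/CD11b+, which does not check the deletion, since 3′ tags may lie outside the deleted part. Of 3677 genes with at least 20 UMIs in the comparison of each sort, 11 (0.299%) were at least 2-fold higher and 23 (0.626%) at least 2-fold lower in *Tet2* KO in both sorts, 0.925% in either direction. The higher genes were led by the ribonuclease gene *Rnase12*, followed by the MHC class I genes *H2-Q7* and *H2-Q6* and included *Mki67*, *Spc24* and *Cenps*. The lower genes were led by the protease gene *Ctse* and included *Ccl4*, *Ccl3*, *Ier3* and *Nfkbia*. The median log2 ratio over all genes was 0.02 in GMP and 0.09 in Lin-/CD11b+. Of all 3677 genes, 1228 were above 0 in both sorts and 885 below 0 in both. These are the background for the same counts in the lists below.

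**Figure D4:**
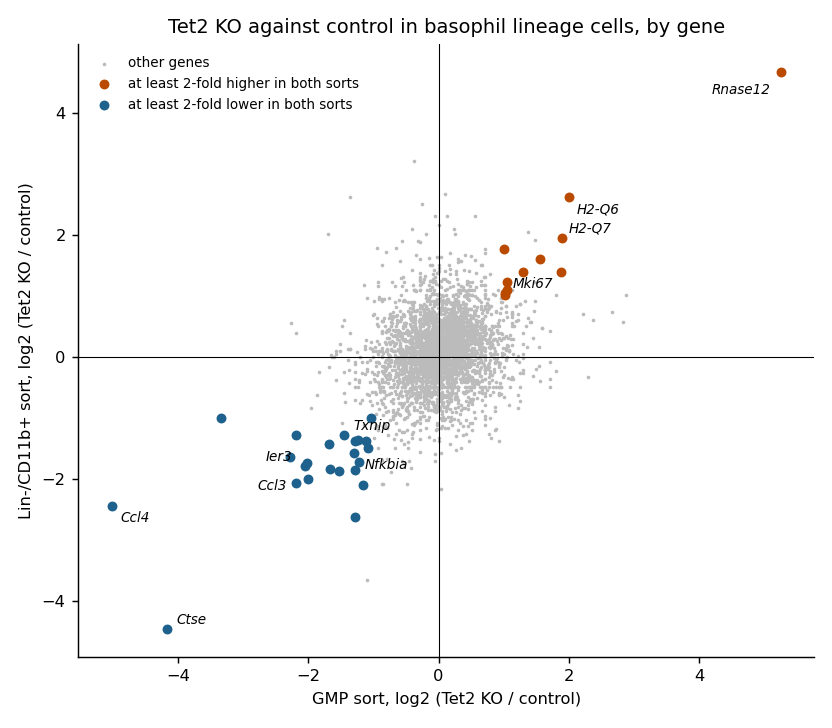
Each point is 1 of 3677 genes, with the log2 ratio of Tet2 KO to control CPM in basophil lineage cells of the GMP sort on the x axis and of the Lin-/CD11b+ sort on the y axis; colours mark the 11 genes at least 2-fold higher and the 23 at least 2-fold lower in both. Rnase12 stands alone at the upper right and Ctse, whose Lin-/CD11b+ value is set by a floor of 3 UMIs, and Ccl4 at the lower left.

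*Rnase12* (chr14:51056698-51057242, GRCm38.p6), a gene of the ribonuclease A family, had 3 UMIs in control GMP members, 140 in *Tet2* KO GMP, 4 in control Lin-/CD11b+ and 144 in *Tet2* KO Lin-/CD11b+. These were 6.06, 231.7, 10.6 and 270.0 CPM, so the genotypes were far apart and the sorts alike. The log2 ratio was 5.26 (3.68 to 7.55) in GMP and 4.67 (3.29 to 6.57) in Lin-/CD11b+. A UMI was found in 2.38, 58.8, 7.14 and 72.4% of members after thinning to 5000 UMIs, and in 7.14, 80.4, 7.14 and 79.3% before it. In cells with *Cebpe* and no *Ly86*, the thinned shares were 0.233, 2.57, 0.315 and 2.48%. The 3 cells with the most UMIs held 16.4 and 21.5% of the total in *Tet2* KO GMP and Lin-/CD11b+, so the level was spread over cells. In all other cells of the libraries it was at 0.580, 5.08, 0.404 and 2.87 CPM, also higher in *Tet2* KO.

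*Ctse* (chr1:131638314-131675507), cathepsin E, an aspartic protease of the endosomal compartment, had 88 UMIs in control GMP members, 6 in *Tet2* KO GMP, 47 in control Lin-/CD11b+ and 0 in *Tet2* KO Lin-/CD11b+. These were 177.7, 9.93, 124.4 and 0 CPM. The log2 ratio was -4.16 (-5.65 to -2.98) in GMP, and in Lin-/CD11b+ it was -4.47 against a floor of 3 UMIs for that library, and the limit of the exact interval nearest to 0 was -4.11. A UMI was found in 69.0, 5.88, 50 and 0% of thinned members (85.7, 9.80, 66.7 and 0% before thinning). For 0 of 58 cells, an approximate upper limit, 3 divided by the number of cells, is 5.17%. It is not an exact interval. In cells with *Cebpe* and no *Ly86* the thinned shares were 28.8, 1.12, 19.6 and 1.93%. The other cells of the libraries stood at 47.9, 1.53, 36.9 and 3.17 CPM, so *Ctse* was lower in *Tet2* KO among them too.

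*H2-Q7* and *H2-Q6* lie side by side on chromosome 17 and encode Qa-2 class Ib MHC proteins, and reads of near-identical paralogs may be split between them, so their separate values are uncertain. *H2-Q7* was at 80.8, 299.6, 63.5 and 243.8 CPM in control GMP, *Tet2* KO GMP, control Lin-/CD11b+ and *Tet2* KO Lin-/CD11b+. Its log2 ratios were 1.89 (1.39 to 2.42) and 1.94 (1.30 to 2.63). *H2-Q6* had 10, 49, 3 and 26 UMIs, with ratios of 2.01 (1.01 to 3.15) and 2.62 (0.91 to 4.99). In the other cells *H2-Q7* was at 67.6, 118.2, 57.5 and 130.9 CPM, higher in *Tet2* KO by log2 ratios of 0.81 and 1.19.

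Other genes higher in *Tet2* KO were *Mki67*, a marker of cycling cells, *Spc24* of the kinetochore, *Cenps* of the centromere, the replication-dependent histone genes *Hist1h2ak*, *Hist1h3d* and *Hist2h2ac* and the RNA exosome subunit *Exosc1*. *Mki67* was at 46.4, 94.3, 52.9 and 106.9 CPM, with log2 ratios of 1.02 (0.30 to 1.79) and 1.01 (0.26 to 1.83). *Spc24* was at 62.6, 127.4, 55.6 and 114.4 CPM, with 1.03 (0.41 to 1.68) and 1.04 (0.31 to 1.83). Histone genes have near-identical copies, and their reads may be split. *Mki67* in the other cells was at 86.4, 80.4, 106.9 and 103.1 CPM, so control members lay below the other cells and *Tet2* KO members near them. Without cells that lacked *Fcer1a*, *Ms4a2* and *Cpa3* or held another class's markers, 5 of the 11 genes were still counted. *Mki67*, *Spc24*, *Cenps*, *Hist2h2ac* and *Exosc1* were among those that were not, each still above 0 in both sorts.

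The list of 20 G2/M genes summed to 913 CPM in control GMP members, 1837 in *Tet2* KO GMP, 1360 in control Lin-/CD11b+ and 1823 in *Tet2* KO Lin-/CD11b+. The other cells were at 1503, 1517, 1795 and 1681 CPM and did not differ that way by genotype. Of 17 genes that passed the filter, 11 were above 0 in both sorts, 0 below in both and 1 (*Mki67*) was counted. The median log2 ratio was 0.94 in GMP and 0.48 in Lin-/CD11b+. *Top2a*, the topoisomerase of mitosis, was at 117.1, 243.3, 134.9 and 211.9 CPM, and *Cdk1*, the mitotic kinase, at 66.6, 139.0, 74.1 and 148.1. *Ube2c*, a ubiquitin-conjugating enzyme of mitotic exit, was at 94.9, 284.7, 232.8 and 324.4 CPM, and 3 cells held 85% of it in control GMP. Cells with at least 5 G2/M UMIs after thinning were 11 of 42 (26.2%, 13.9 to 42.0), 29 of 51 (56.9%, 42.2 to 70.7), 10 of 42 (23.8%, 12.1 to 39.5) and 28 of 58 (48.3%, 35.0 to 61.8). The same share in other cells was 47.5, 50.3, 47.2 and 46.9%. The S phase list did not take the same direction in both sorts, with medians of -0.06 and 0.69 over 16 genes and sums of 1472, 1428, 987 and 1622 CPM.

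Immediate early genes, whose transcripts appear within minutes of a stimulus or of cell handling, were lower in *Tet2* KO members. Their 14 genes summed to 3484 CPM in control GMP, 2044 in *Tet2* KO GMP, 4292 in control Lin-/CD11b+ and 2338 in *Tet2* KO Lin-/CD11b+ (log2 ratios -0.77 and -0.88). Of 11 genes that passed the filter, 10 were below 0 in both sorts, 0 above in both and 2 were counted, *Ier3* and *Ier2*. The median log2 ratio was -0.85 in GMP and -0.76 in Lin-/CD11b+. The other cells differed the same way, with 1364, 844, 2076 and 1542 CPM. The part of handling in either was not tested.

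*Ier3* (chr17:35821713-35822911), an early response gene that modulates cell survival, had 279, 82, 236 and 96 UMIs, or 563.4, 135.7, 624.4 and 180.0 CPM. Both control libraries stood above both *Tet2* KO libraries, by log2 ratios of -2.05 (-2.43 to -1.69) and -1.79 (-2.15 to -1.45). The other cells had 46.6, 18.3, 34.1 and 24.6 CPM. *Ier2* was at 401.9, 196.9, 566.2 and 281.3 CPM, with ratios of -1.03 (-1.37 to -0.69) and -1.01 (-1.32 to -0.70). *Ier2* was no longer counted at a minimum share of 1 or 2%, with a UMI of *Fcer1a*, *Ms4a2* or *Cpa3* required, in thinned cells or without cells with 5 or more G2/M UMIs. The AP-1 gene *Fos* was at 510.9, 352.5, 685.3 and 405.0 CPM and *Jun* at 922.9, 728.2, 1127 and 688.2. *Dusp1*, a phosphatase of MAP kinases, was at 216.1, 110.9, 203.7 and 93.8 CPM, with ratios of -0.96 (-1.43 to -0.51) and -1.12 (-1.66 to -0.59), and *Klf6* at 230.2, 127.4, 230.2 and 105.0. *Egr1* was at 99.0, 38.1, 113.8 and 84.4 CPM, and *Jund* had no common direction and *Klf2* too few UMIs.

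**Figure D5:**
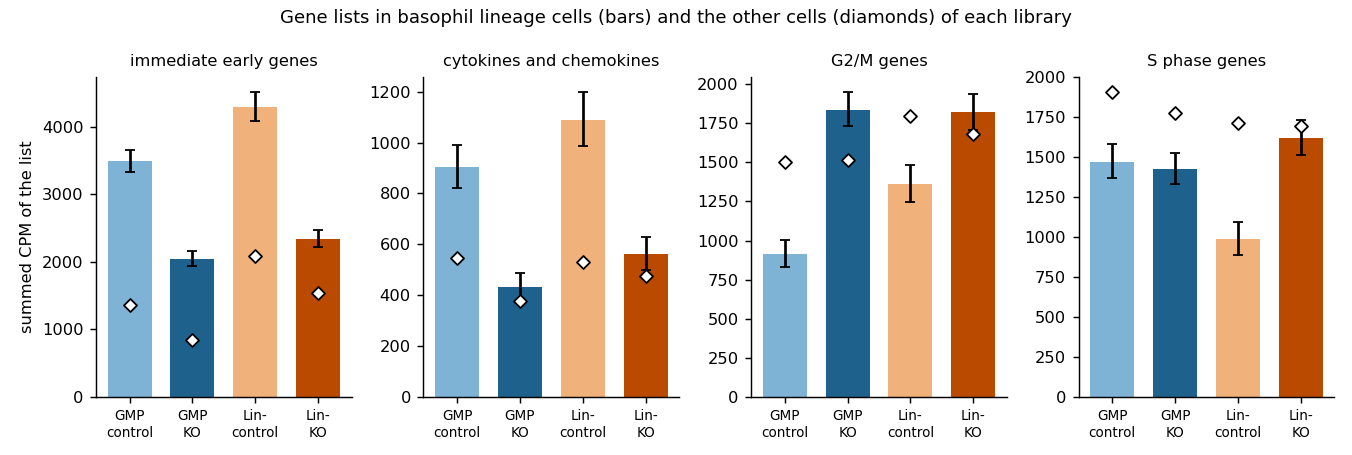
Bars give the summed CPM of 4 gene lists in the basophil lineage cells of each library, from 0, with exact Poisson intervals, and diamonds the same sum in the other cells of that library. The Tet2 KO bars are lower for immediate early genes and for cytokines and chemokines and higher for G2/M genes in both sorts, and the S phase bar of Tet2 KO is the higher in the Lin-/CD11b+ sort alone.

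Cytokine and chemokine genes summed to 905 CPM in control GMP members, 430 in *Tet2* KO GMP, 1087 in control Lin-/CD11b+ and 563 in *Tet2* KO Lin-/CD11b+. Of 7 genes that passed the filter, 6 were below 0 in both sorts and 2 were counted, *Ccl3* and *Ccl4*, and the median log2 ratio was -0.83 and -0.68. *Ccl3*, the chemokine MIP-1α, had 67, 18, 92 and 31 UMIs, or 135.3, 29.8, 243.4 and 58.1 CPM, with ratios of -2.18 (-3.02 to -1.42) and -2.07 (-2.70 to -1.46). *Ccl4*, MIP-1β, had 53, 2, 54 and 14 UMIs, or 107.0, 3.31, 142.9 and 26.3 CPM, with ratios of -5.02 (-8.10 to -3.09) and -2.44 (-3.41 to -1.58). The annotated spans of *Ccl3* and *Ccl4* overlap on chromosome 11, so reads in the overlap are uncertain. Both chemokines were uneven between cells, and a *Ccl3* UMI was found in 23.8, 5.88, 33.3 and 19.0% of thinned members (35.7, 11.8, 35.7 and 19.0% before thinning), against 2.09, 1.23, 1.58 and 3.58% of thinned cells with *Cebpe* and no *Ly86*. In the other cells *Ccl3* was at 14.3, 7.15, 34.4 and 14.9 CPM. *Osm*, oncostatin M, had 16, 2, 29 and 7 UMIs and missed the filter in GMP. *Il4* had log2 ratios of -0.29 (-1.51 to 0.94) and -1.57 (-2.82 to -0.42), and *Il6* of -0.72 (-1.72 to 0.24) and 0.38 (-0.49 to 1.29), so neither differed beyond counting error in both sorts.

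Other genes lower in *Tet2* KO belonged to neither list and are given singly. *Nfkbia*, which encodes the NF-κB inhibitor IκBα, was at 414.0, 168.8, 412.8 and 138.8 CPM, with log2 ratios of -1.29 (-1.65 to -0.94) and -1.57 (-1.99 to -1.16). In the other cells it was at 59.6, 55.6, 91.3 and 110.4 CPM, with no common direction. *Tnfaip3*, which encodes the NF-κB inhibitor A20, had 18, 9, 18 and 7 UMIs, with ratios of -1.29 (-2.62 to -0.06) and -1.86 (-3.36 to -0.53). *Rgs1*, a regulator of G-protein signalling, was at 167.6, 57.9, 283.1 and 76.9 CPM, with ratios of -1.53 (-2.15 to -0.95) and -1.88 (-2.44 to -1.35), and *Rgs2* at 300.9, 124.1, 344.0 and 131.3 CPM, with -1.28 (-1.70 to -0.87) and -1.39 (-1.83 to -0.96). *Rgs2* in the other cells was at 95.7, 84.2, 148.0 and 153.5 CPM. *Txnip*, a thioredoxin inhibitor, was at 117.1, 43.0, 119.1 and 48.8 CPM, *Cd24a* at 165.6, 71.2, 156.1 and 46.9 and *Oser1* at 113.1, 28.1, 97.9 and 24.4. *Pim1*, a kinase gene induced by cytokines, was at 84.8, 38.1, 177.3 and 41.3 CPM. The remaining genes were *Gm1604a*, *1700006J14Rik*, *Plin2*, *Hacd4*, *Ing4*, *Arhgap9*, *Asah1*, *Lgals3*, *F13a1* and *Irf8*. Of *Irf8*, 3 cells held 82 to 89% of the UMIs in each library, and *Irf8*, *F13a1*, *Plin2*, *Asah1* and *Arhgap9* were no longer counted without cells that lacked the other markers or held another class's.

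Genes of the mature basophil were then read by genotype. None of the 4 markers outside the rule was counted. *Fcer1a* had ratios of -0.44 (-0.58 to -0.29) and -0.55 (-0.68 to -0.42), and *Gata2* of -0.79 (-1.20 to -0.39) and -0.36 (-0.73 to 0.00). *Ms4a2* had ratios of -0.29 (-0.53 to -0.04) and -0.15 (-0.41 to 0.12), and *Cpa3* of -0.12 (-0.24 to 0.00) and -0.02 (-0.14 to 0.09). These ratios include the 8 cells that lacked all 4 markers. Of these cells 4 were in control GMP and 2 in *Tet2* KO GMP, so they lower the control GMP sums more. Lin-/CD11b+ held 0 in control and 2 in *Tet2* KO. Median CPM per cell in control and *Tet2* KO GMP was 1981 and 1293 for *Fcer1a* and 316.4 and 137.0 for *Gata2*. It was 654.1 and 463.2 for *Ms4a2* and 2256 and 1967 for *Cpa3*. Ratios without these cells were not computed. *Mcpt8*, a gene of the rule, had ratios of -0.20 and 0.35. Of 17 surface and effector genes that passed the filter, 12 were below 0 in both sorts and 2, *Ccl3* and *Ccl4*, were counted, with medians of -0.50 and -0.29. Over all genes that passed it, 885 of 3677 were below 0 in both sorts. The sum over the 26 genes of the list was not lower in *Tet2* KO. It was 4823 and 5200 CPM in control and *Tet2* KO GMP and 5257 and 5344 in Lin-/CD11b+. *Cd200r3* was at 88.9, 24.8, 166.7 and 140.6 CPM, lower in *Tet2* KO by a ratio of -1.84 (-2.79 to -0.97) in GMP and -0.25 (-0.75 to 0.26) in Lin-/CD11b+. *Ifitm1*, an interferon-induced membrane protein, was 1 of 2 genes of this list above 0 in both sorts, at 1159, 2097, 1156 and 1416 CPM, with ratios of 0.86 (0.71 to 1.0) and 0.29 (0.12 to 0.47). *Cd63*, the granule membrane protein used to read degranulation, lay between 2286 and 2698 CPM in all 4 libraries.

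In the IgE receptor pathway, 0 of 9 genes were counted and 5 were below 0 in both sorts, with medians of -0.38 and -0.55. *Fcer1g* was at 858.3, 683.5, 1209 and 1367 CPM and had opposite signs in the sorts. The adaptors *Lat* and *Lat2* had ratios of -0.56 (-1.28 to 0.14) and -0.64 (-1.42 to 0.13) for *Lat* and -0.44 (-0.99 to 0.11) and -0.64 (-1.14 to -0.14) for *Lat2*. The kinases *Lyn*, *Syk* and *Fyn* had 15 UMIs or fewer in each library. Among 8 histamine, granule and lipid mediator genes, 0 were counted and the medians were -0.04 and 0.06. Cytokine receptors had medians of -0.25 and -0.31 over 8 genes, with 0 counted, and *Il3ra* had ratios of -0.76 (-1.31 to -0.23) and -0.29 (-0.82 to 0.24). Of 13 transcription factors, *Irf8* alone was counted, and the medians were -0.19 and -0.27. *Ikzf2*, Helios, was at 224.2, 148.9, 251.4 and 166.9 CPM, with -0.59 in both sorts (-1.01 to -0.18 and -1.02 to -0.16). *Cebpa* had opposite signs, with -0.72 (-1.51 to 0.06) in GMP and 1.22 (0.50 to 2.00) in Lin-/CD11b+.

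Neutrophil primary granule genes had medians of -0.03 in GMP and 0.65 in Lin-/CD11b+, with 0 of 8 counted. *Elane* was higher in *Tet2* KO Lin-/CD11b+ by a log2 ratio of 3.21 (2.81 to 3.64), but 3 cells held 86% of its UMIs in that library, and in GMP the ratio was -0.38 (-0.50 to -0.25). Without the 8 cells that lacked the other markers, *Elane* in GMP was at 714.9 CPM in control and 1369 in *Tet2* KO members. The direction of the GMP sums therefore turned, and in Lin-/CD11b+ *Elane* was at 140.2 and 469. These sums rested in part on single cells, as 1 *Tet2* KO GMP cell held 261 *Elane* UMIs. In *Tet2* KO Lin-/CD11b+ the highest level left lay in 1 cell with 25948 UMIs in total. Median CPM of *Elane* per cell, over all members, was 311.5 and 424.7 in control and *Tet2* KO GMP. In Lin-/CD11b+ it was 59.99 and 0, the other way from the sum. *Mpo* was at 3130, 4003, 1704 and 3640 CPM, with 0.35 (0.26 to 0.45) and 1.09 (0.97 to 1.23), and *Ms4a3* at 969.3, 1307, 997.5 and 1303, with 0.43 (0.27 to 0.60) and 0.39 (0.20 to 0.57). Ribosomal protein genes had medians of -0.03 and 0.03 and oxidative phosphorylation genes of 0.18 and 0.40, with 0 of 83 and 0 of 75 counted. Of 4 genes of DNA methylation that passed the filter, 0 were counted, with medians of 0.24 and 0.37.

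The genotype differences were also read in cells that the rule left out. Cells with a share of 0.05 to under 0.5% numbered 38, 64, 20 and 31 in the 4 libraries (153 in all), and those at 0.05 to 0.25% held a *Fcer1a* UMI in 51.1% of cells, against 1.27% of cells under 0.05%. They come from the same libraries, so they add cells and not mice. Of the 11 genes higher in *Tet2* KO members, 6 had the same direction in both sorts in these cells and 2 were at least 2-fold apart, *Rnase12* and *H2-Q7*. Of the 23 lower genes, 20 had the same direction and 10 were at least 2-fold apart, namely *Ctse*, *Ccl4*, *Ccl3*, *Ier3*, *Ier2*, *Oser1*, *Txnip*, *Tnfaip3*, *Hacd4* and *1700006J14Rik*. Counts were low, with 9, 4, 7 and 2 UMIs of *Hacd4* and 6, 4, 4 and 2 of *1700006J14Rik* in the 4 libraries. Intervals held 0 in both sorts for these 2 genes and in Lin-/CD11b+ for *Oser1* and *Tnfaip3*. In the rest of each library taken whole, which includes these cells, 7 of 11 and 15 of 23 genes had the same direction in both sorts, and *Rnase12*, *Ctse*, *Ccl4* and *1700006J14Rik* were at least 2-fold apart. The same counts over all genes were not made for either set of cells, so these numbers have no background beside them.

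*Rnase12* had 5, 94, 4 and 39 UMIs in the 153 cells, or 9.36, 117.3, 19.1 and 124.4 CPM, with log2 ratios of 3.65 (2.37 to 5.30) and 2.71 (1.24 to 4.65). Cells under 0.05% had 0.366, 2.89, 0.227 and 1.6 CPM. *Ctse* had 69, 6, 20 and 1 UMIs, with -4.11 (-5.60 to -2.91) and -4.90 (-10.27 to -2.26). *Ier3* was at 366.9, 129.8, 281.0 and 111.6 CPM, with -1.50 (-1.86 to -1.15) and -1.33 (-1.98 to -0.70). Immediate early genes summed to 2662, 1744, 3496 and 1716 CPM and cytokines and chemokines to 788.1, 434.3, 890.7 and 462.5, lower in *Tet2* KO in both sorts as in the members. G2/M genes summed to 1600, 1375, 990.7 and 861.3 CPM, with log2 ratios of -0.22 (-0.35 to -0.09) and -0.20 (-0.47 to 0.07). The G2/M difference of the members therefore did not extend to these cells, and *Mki67* had ratios of -0.16 and -0.69 there.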

How the data were processed

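Single bone marrow cells were profiled by 3′ UMI counting in 4 libraries, with 1 library for each sort of each genotype. The authors deposited raw counts of UMIs for 18695 genes and 8969 cells, with the library and UMI total of each cell. The submitters' processing notes list Cell Ranger 3.1.0, Seurat and mm10, while for the annotation the release is not given. The reagent kit version differs between the methods and the design text. The methods state minima of 200 genes and 5000 UMIs and a limit of 5% mitochondrial UMIs per cell, and 2 members exceed the last. A supplementary table of the study lists the cell numbers of the *Tet2* KO GMP and control Lin-/CD11b+ libraries the other way round. The deposited assignment was used, and the comparisons rest on it. The chromatin data were not analysed here.

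Members were found on the raw counts, and their UMIs were summed per library and scaled to CPM, each with its exact Poisson interval. Ratios have exact conditional binomial intervals. Genes needed 20 UMIs over the 2 libraries compared, and a library at 0 was set to a floor of 3 UMIs. No p-value was computed. Shares of cells were read after thinning to 5000 UMIs (seed 1). No doublet caller was run, and cells with 10 or more UMIs of dendritic, lymphoid and plasma, or monocyte markers were left out as an alternative. The members and the gene lists were chosen with earlier results of these data known. Named genes were the 6 markers, list genes that a sentence needed, for genotype and sort the 12 highest and 12 lowest genes counted, by the interval limit nearest to a ratio of 1, and for members against other cells the first 20 and 10. The other genes named were chosen after their values were seen, and 1 gene counted by genotype is not reported here. *Prss34*, *Fcer1a*, *Ms4a2* and *Cpa3* promoters and gene positions came from RefSeq tables of GRCm38.p6. The ratio computation was tested on simulated data. Alternatives were other share minima, no *S100a8* limit, other markers required, mitochondrial, doublet and depth limits, edgeR's TMM factors (version 4.0.16, under R 4.3.3), no filter, the mean over cells, thinned cells and 1.5-fold. Python 3.11.15 was used with numpy 2.4.6, scipy 1.17.1, pandas 2.3.3 and matplotlib 3.10.9.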

Additional observations from a re-analysis of the deposited data

Results flagged for a closer look

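A few genes had ratios of opposite sign in the comparisons set side by side, each past 2-fold with an interval on its side of 0, and in none of them was the difference between the comparisons tested. *Trmt6*, a subunit of a tRNA methyltransferase, had 21, 10, 3 and 26 UMIs in the members of control GMP, *Tet2* KO GMP, control Lin-/CD11b+ and *Tet2* KO Lin-/CD11b+. Its log2 ratio of *Tet2* KO to control was -1.36 in GMP and 2.62 in Lin-/CD11b+, and its ratio of GMP to Lin-/CD11b+ was 2.42 in control and -1.56 in *Tet2* KO. *Kat7*, a histone acetyltransferase gene, had 16, 6, 3 and 17 UMIs, with genotype ratios of -1.70 in GMP and 2.01 in Lin-/CD11b+. *Ptgr1*, a prostaglandin reductase gene, had 18, 7, 3 and 16 UMIs, with sort ratios of 2.20 in control and -1.37 in *Tet2* KO. *Dynlt1a*, a dynein light chain gene with near-identical copies, had 22, 14, 6 and 29 UMIs, with sort ratios of 1.48 in control and -1.23 in *Tet2* KO. All rest on 29 UMIs or fewer per library.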

How the results depend on the processing

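No paired analysis was possible because each genotype and sort had 1 library and the 4 libraries carry the same replicate number, and leaving out a replicate was not possible either. At a minimum share of 2%, the shares of members were 1.67 and 0.662% in control and *Tet2* KO GMP and 1.40 and 1.43% in Lin-/CD11b+. That of *Tet2* KO GMP was 2.72% at a minimum of 0.25% and 1.25% at 1%. The other 26 values lay within the interval of the share as reported. Genes counted as higher in *Tet2* KO (11) numbered 18 without cells with another class's markers (7 of the 11 kept), 18 with the mean over cells (8 kept) and 23 at 1.5-fold (11 kept). Those lower in *Tet2* KO (23) numbered 13 at a minimum share of 2% (10 of the 23 kept), 14 in thinned cells (12 kept), 37 at 1.5-fold (23 kept) and 13 without cells with 5 or more G2/M UMIs (10 kept, and 3 of the 11), an alternative chosen after seeing the data that left 2233 genes to test. Genes higher in the GMP sort (4) numbered 10 at a minimum of 0.25% (1 of the 4 kept), 2 at 2% (0 kept), 2 with a UMI of *Fcer1a*, *Ms4a2* or *Cpa3* required (1 kept), 12 with the mean over cells (4 kept), 22 at 1.5-fold (4 kept) and 2 without cells that lacked the markers or held another class's (1 kept). Those lower in it (10) numbered 23 with no filter, 18 with the mean over cells and 28 at 1.5-fold, each with all 10 kept. With TMM factors all 11 and 23 genotype genes were kept.

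For cytokines and chemokines in Lin-/CD11b+, the median log2 ratio of *Tet2* KO to control was -0.36 at a minimum of 1%, -1.08 with no filter and -1.18 without cells that lacked the markers or held another class's. For G2/M genes in GMP it was 1.15 at a minimum of 1% and 1.12 with the mean over cells. It was 0.66 without cells with 5 or more G2/M UMIs and 1.16 without cells lacking markers. In Lin-/CD11b+ it was 0.69, -0.53 and 0.84 under the last 3 of these settings. The sign turned there without the G2/M cells, which were themselves chosen on these genes. For immediate early genes it was -1.0, -0.62 and -1.10 in GMP at 1%, without G2/M cells and without cells lacking markers, and -0.94 and -0.88 in Lin-/CD11b+ under the first 2. For S phase genes in GMP it was 0.43 without G2/M cells. The cause of these shifts was not tested. *Lyz2* in *Tet2* KO turned to 0.17 at a minimum of 2% and to 0.26 without its 3 highest cells. In cells with a share of 0.05 to under 0.5%, the GMP ratios of *Cenps*, *Hist1h2ak*, *Hist2h2ac* and *Mki67* turned to -0.12, -0.32, -0.17 and -0.16, and that of *Mki67* in Lin-/CD11b+ to -0.69. Of 396 genotype values of named genes under the alternatives, these 5 turned sign, 355 lay within the interval as reported and 36 lay outside it with the same sign. With 42 to 58 cells per library, genes under about 20 UMIs could not be compared.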

Other observations

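*Rpgrip1*, a photoreceptor cilium gene on chromosome 14, was chosen after its values were seen and missed the filter of the report. It had 0 UMIs in control GMP members, 16 in *Tet2* KO GMP, 1 in control Lin-/CD11b+ and 17 in *Tet2* KO Lin-/CD11b+. The other cells were at 0.759, 34.5, 4.44 and 35.6 CPM, higher in *Tet2* KO in both sorts. *Rnase12* lies on the same chromosome.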
